A study of Mus musculus with 8 samples.

Results

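The 37 genes described here encode signalling proteins, membrane proteins and regulators of the cytoskeleton that are best known from white blood cells, some from most lineages and others mainly from myeloid cells or lymphocytes. They are listed by name, by a rule that rests on the general role of each gene rather than on an intensity threshold. On the array, 35 of the 37 had a probe set that carries 1 gene symbol, out of 19938 genes with such a probe set in the whole series, and 32 of the 35 were bright enough to be tested. Of the other 2, Evi2a shares its probe set with neighbouring genes and Lyn was not analysed here. The 37 fall into 7 surface and membrane proteins, 8 kinases, phosphatases and a phospholipase, 9 adaptors and proteins of Rac signalling, 5 proteins of the actin cytoskeleton, 4 transcription factors and 4 parts of the NADPH oxidase.

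The study profiled whole uterus of C57BL/6 mice on 8 gene expression arrays. In the pregnant group, 4 females had mated with fertile males, and their uteri were taken on day 3 at 22 h, the mating night being day 0, without a blue dye reaction at any attachment site and with blastocysts that could be flushed from the horns. In the pseudopregnant group, 4 females had mated with vasectomised males, and their uteri were collected at the same hour, so that the hormonal state of early pregnancy was present without embryos. The male differed between the groups together with the presence of embryos, so mating and embryo cannot be told apart. Samples with the best RNA quality had been picked for the arrays. The free-text description of the pseudopregnant samples calls them pregnant, against their titles, source names and characteristics, from which the groups were taken. Each sample was named a biological replicate, and the sources used here do not say whether animals shared mating, collection or array days. Markers of smooth muscle, stromal fibroblasts, epithelium and endothelium were all bright enough to be tested on these arrays, 6 of 6 genes in each of those 4 lists. Pregnant replicate 2 and pseudopregnant replicate 1 lay farthest out on the first principal component of all genes tested, at 26.7 and -20.3. On the same axis the 3 remaining pregnant arrays had 4.90 to 6.63, against -9.32 to -6.76 for the 3 remaining pseudopregnant arrays.

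White blood cells turn signals at their surface into movement, secretion and killing through a shared set of proteins. Receptors are phosphorylated by tyrosine kinases such as Syk, phosphatases such as CD45 and SHP-1 set how strongly those kinases act, adaptors such as SLP-76 gather the enzymes into complexes, and exchange factors such as Vav1 and DOCK2 switch on Rac, which rebuilds the actin cytoskeleton and helps to assemble the NADPH oxidase. The transcription factor PU.1, encoded by Spi1, switches on many of these genes in myeloid cells and B cells. In the uterus before attachment, the white blood cells include macrophages, dendritic cells and natural killer (NK) cells.

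Higher values in pregnant uterus ran through the genes tested. Of the 32 genes tested, 7 rose in the pregnant group and 0 fell (limma, adjusted p under 0.05), where of the 17494 probe sets tested on the array 1.82% changed, 1.41% rising and 0.412% falling. Those 7 were Cd53, Ptprc, Lcp2, Dock2, Nckap1l, Gmfg and Spi1, at differences between 0.33 and 0.85 on the log2 intensity scale, or folds between 1.25 and 1.80. All 32 differences were above 0, where 50.6% of all probe sets tested were, and their median was 0.29, where that of all probe sets tested was 0.002. Before adjustment, 26 of the 32 were higher and 0 lower at a limma p under 0.05, against 14.3% and 9.43% of all probe sets tested. In 16 of the 32 every pregnant array lay above every pseudopregnant array, against 9.23% of all probe sets tested, and in 0 the reverse held, against 5.38%. The genes were listed with earlier results of these data known, so the set was not tested against these shares. The changes were small, as 18 of the 32 reached a fold of 1.2 and 4 reached 1.5. In RNA of a whole organ, a larger number of white blood cells and more RNA of these genes per cell cannot be told apart.

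**Figure D1:**
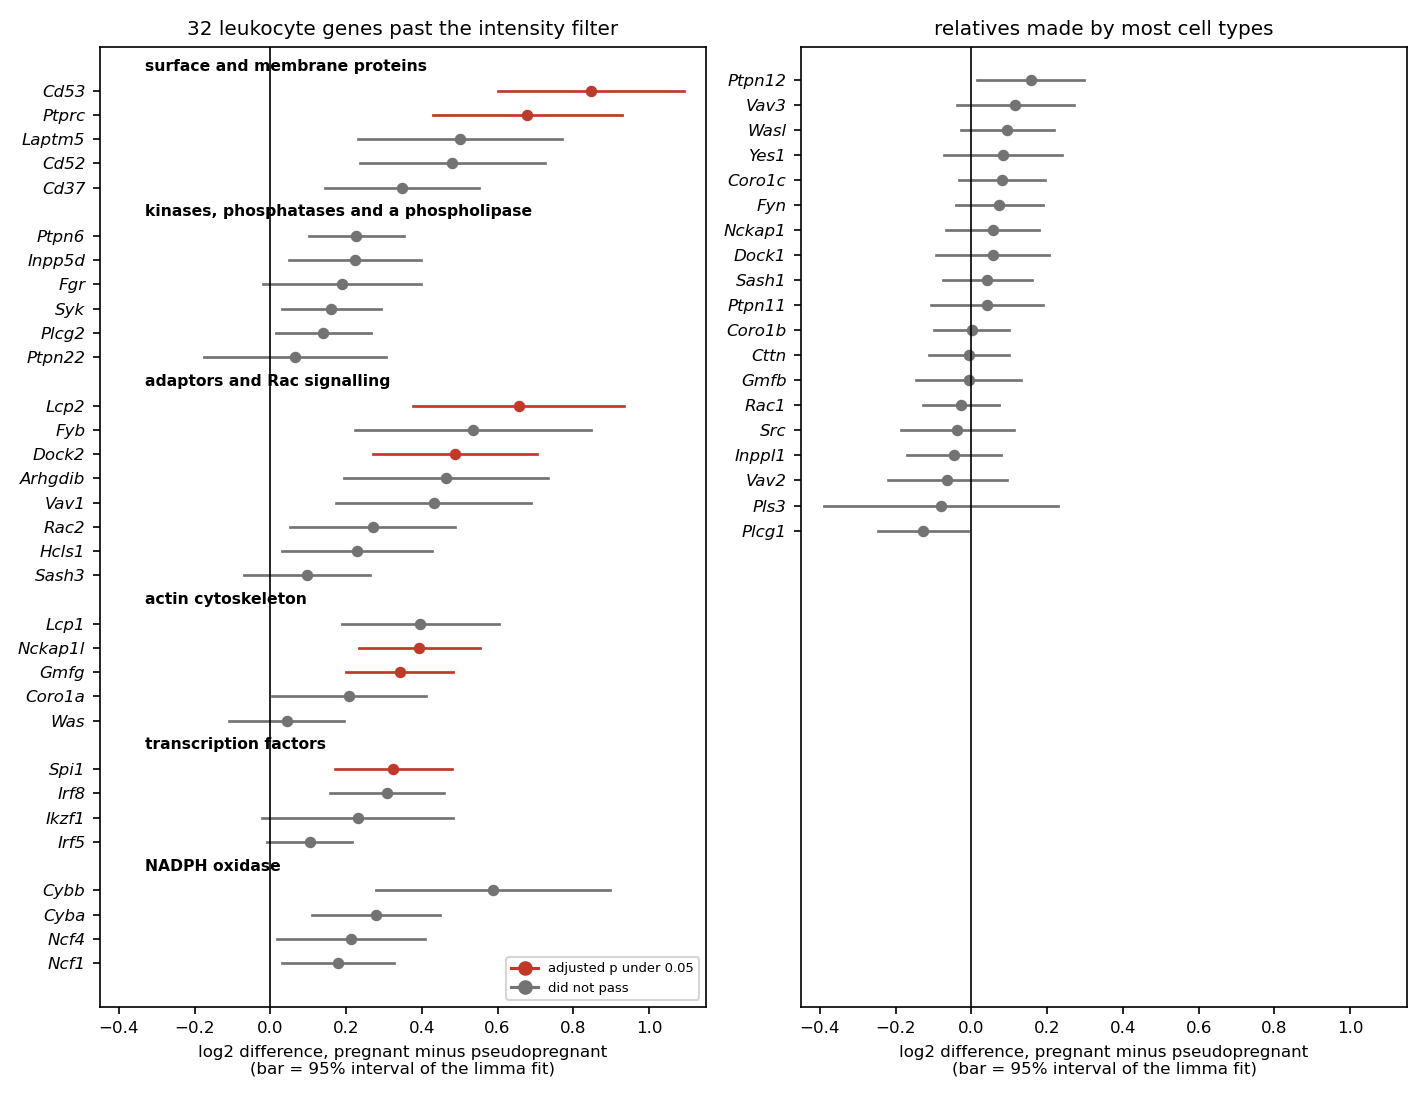
Log2 difference in intensity, pregnant minus pseudopregnant, of the 32 genes tested (left, grouped by role) and of their close relatives made by most cell types (right), with the 95% interval of the limma fit (n = 4 arrays each); red marks an adjusted p under 0.05. All 32 points on the left lie above 0, between 0.04 and 0.85, and the 19 on the right lie between -0.13 and 0.16.

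The number that passed the test depended on which arrays were used, while the median difference moved little. Without pregnant replicates 1, 2, 3 and 4 in turn, 2, 2, 2 and 1 of the 32 genes rose. Without pseudopregnant replicates 1, 2, 3 and 4 in turn, 1, 1, 1 and 10 rose, and without both pregnant replicate 2 and pseudopregnant replicate 1, 0 did. The count over all probe sets tested moved as well, from 319 in either direction with all 8 arrays. Without the pregnant arrays in turn it was 84, 101, 207 and 86, and without the pseudopregnant arrays in turn 40, 70, 40 and 235. Without both arrays named above it was 48. The median difference over the 32 genes stayed between 0.27 and 0.34 in all 9 fits with arrays left out. Some single genes moved more than this median. With 1 array left out, Coro1a lay between 0.14 and 0.29, Ptpn22 between 0.01 and 0.15 and Fyb between 0.46 and 0.67. Cd53 was the only one of the 7 to pass whichever single array was left out.

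Some arrays stood high or low for many of the genes at once. Pseudopregnant replicate 4 was the highest array of its group in 24 of the 32 genes, where it was so in 22.4% of all probe sets tested. Pregnant replicate 2 was the highest of its group in 16 of them, against 27.3% of all probe sets tested, and pregnant replicate 1 the lowest in 20, against 22.9%. With pseudopregnant replicate 4 left out, the groups were separate in 23 of the 32 genes, against 12.0% of all probe sets tested. That array was picked for standing high in these same genes, so leaving it out favours their separation over that of other probe sets. The mean log2 intensity of the 32 genes was 6.66, 6.83, 6.81 and 6.72 on pregnant arrays 1 to 4, against 6.37, 6.34, 6.42 and 6.56 on pseudopregnant arrays 1 to 4, so the arrays of the groups did not overlap. Within groups the 32 genes had a median SD of 0.15, against 0.10 for all probe sets tested.

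**Figure D2:**
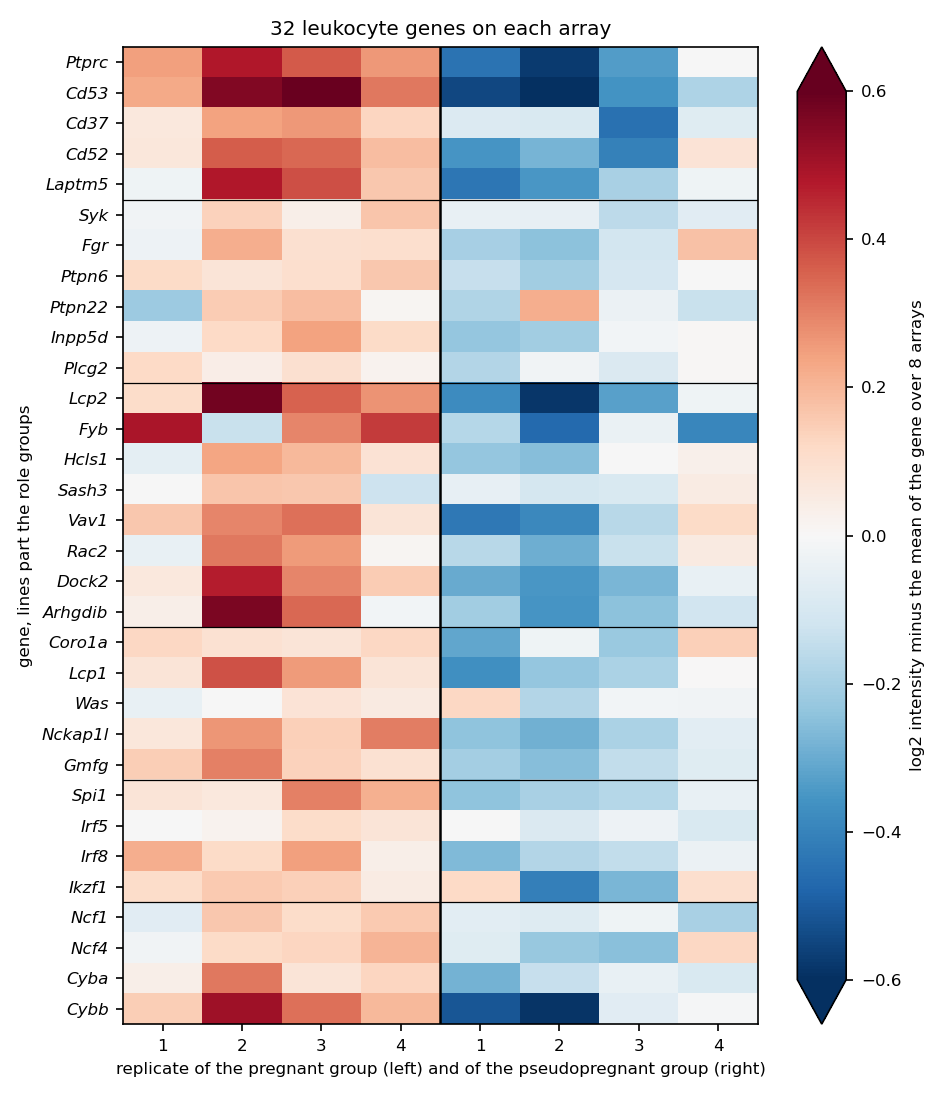
Log2 intensity of each of the 32 genes on each array (columns, by replicate, pregnant on the left and pseudopregnant on the right) minus the gene's mean over all 8 arrays; horizontal lines part the role groups. Red fills most pregnant columns and blue most pseudopregnant ones, pseudopregnant replicate 4 is the palest of its group, and Fyb departs from the other genes in pregnant replicate 2.

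The sequence just before the start of transcription is shown for 4 of the genes that rose, because PU.1 and its partners act at such sites in white blood cells and because the 4 include genes with a match and a gene without one. The stretches are the 120 bases before the RefSeq transcript start in mouse build GRCm38.p6, written 5′ to 3′ in the direction of the gene. Capitals mark a match to the PU.1 core GAGGAA in Cd53 and Dock2 and to an ETS-IRF composite element (GGAA and GAAA parted by any NN), which PU.1 can bind together with an interferon regulatory factor, in Gmfg. Lcp2 held neither in this stretch. The promoters of Ptprc and another promoter of Gmfg, not shown, also held neither in their 120 bases.
Cd53 (chr3:106790150-106790269, minus strand): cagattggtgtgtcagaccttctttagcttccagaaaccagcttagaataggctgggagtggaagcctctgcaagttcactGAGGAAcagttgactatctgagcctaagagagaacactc
Dock2 (chr11:34783906-34784025, minus strand): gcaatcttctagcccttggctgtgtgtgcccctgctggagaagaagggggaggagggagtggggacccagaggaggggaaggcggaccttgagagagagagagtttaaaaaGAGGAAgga
Gmfg (chr7:28437349-28437468, plus strand): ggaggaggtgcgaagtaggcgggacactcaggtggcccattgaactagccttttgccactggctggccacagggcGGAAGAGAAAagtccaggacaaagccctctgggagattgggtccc
Lcp2 (chr11:34046808-34046927, plus strand): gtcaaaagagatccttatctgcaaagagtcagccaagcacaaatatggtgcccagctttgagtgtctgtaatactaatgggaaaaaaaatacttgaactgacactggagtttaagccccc
The core of Cd53 began 39 bases before the start, that of Dock2 9 bases before it, and the element of Gmfg 45 bases before it.

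Promoter entries were present for 30 of the 37 genes, with 40 promoters in all, and for 5 of the 7 genes that rose. Searched on both strands of the 250 bases before each start, GAGGAA was found in 15 of the 40 promoters, or 37.5%, against 23.3% of all 32851 mouse promoters in the table. The composite element was found in 1 of the 40, that of Gmfg, or 2.50%, against 2.30% of all promoters. The RUNX core TGTGGT, a site of another family of blood cell regulators, was found in 7 of the 40, or 17.5%, against 14.0%. The core and the composite element can share letters, but in Gmfg they lay in different promoters. The core was present in 14 of the 30 genes, or 46.7%, against 25.9% of all 27025 genes with a promoter entry. Of these 14, Cd53, Dock2, Gmfg and Ptprc rose. Arhgdib, Cd37, Fyb, Inpp5d, Laptm5, Ptpn22, Sash3, Syk and Vav1 did not pass the test, and Cytip was too dim for it. A match is a run of letters and does not show that a factor is bound there.

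Among the surface and membrane proteins, Cd53 and Ptprc rose, where 1.41% of all probe sets tested did. The 3 others tested had higher means in the pregnant group without passing the test. The median difference of the 5 was 0.50. Cd53, a tetraspanin of the white blood cell surface that organises receptors in the membrane, had log2 intensities of 7.29, 7.61, 7.65 and 7.37 in pregnant uteri, against 6.51, 6.46, 6.70 and 6.88 in pseudopregnant uteri. Every pregnant array was above every pseudopregnant one, and the nearest values of the groups were 7.29 and 6.88. The difference of 0.85 (SE 0.110, 95% interval 0.60 to 1.09), a 1.80-fold higher intensity, had a limma adjusted p of 0.0133. It kept an adjusted p between 0.0109 and 0.0494 when any single array was left out, and had 0.0609 without both pregnant replicate 2 and pseudopregnant replicate 1.

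Ptprc encodes CD45, the receptor phosphatase carried by nearly all nucleated blood cells and the usual marker of white blood cells in tissue. Its log2 intensities were 7.14, 7.37, 7.26 and 7.15 in pregnant uteri, against 6.44, 6.32, 6.55 and 6.89 in pseudopregnant uteri. The groups did not overlap, and the pseudopregnant values were spread more widely (SD 0.24) than the pregnant ones (SD 0.11), with replicate 4 closest to the pregnant group. The difference was 0.68 (SE 0.112, 95% interval 0.43 to 0.93), or 1.60-fold, with a limma adjusted p of 0.0260. With a single array left out the difference lay between 0.60 and 0.79 and the adjusted p between 0.00867, without pseudopregnant replicate 4, and 0.0769, without pseudopregnant replicate 1. It passed without pregnant replicate 3 or pseudopregnant replicate 4 and did not pass without any of the 6 others.

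Laptm5, a lysosomal membrane protein of blood cells that lowers antigen receptor levels, had 8.49, 9.0, 8.90 and 8.68 in pregnant uteri, against 8.08, 8.17, 8.32 and 8.49 in pseudopregnant uteri. The lowest pregnant and the highest pseudopregnant array met at 8.49, and the difference of 0.50 (SE 0.120) had a limma adjusted p of 0.0596. Cd52, a short glycoprotein anchored to the surface of lymphocytes and macrophages, had 7.19, 7.48, 7.46 and 7.31 in pregnant uteri, against 6.77, 6.84, 6.71 and 7.20 in pseudopregnant uteri. Its groups overlapped through pseudopregnant replicate 4. The difference of 0.48 (SE 0.110) had a limma adjusted p of 0.0554, and of 0.0221 without that array. Cd37, a tetraspanin most studied in B cells, had 6.42, 6.60, 6.62 and 6.49 in pregnant uteri, against 6.28, 6.27, 5.91 and 6.29 in pseudopregnant uteri. Its groups were separate, pseudopregnant replicate 3 lay far below the other 3 arrays, and the difference of 0.35 (SE 0.0909) had a limma adjusted p of 0.0687. Cd48, the ligand of the receptor CD244 of NK cells, was too dim to be tested, at 4.53 to 4.77 in pregnant uteri and 4.30 to 4.59 in pseudopregnant uteri.

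**Figure D3:**
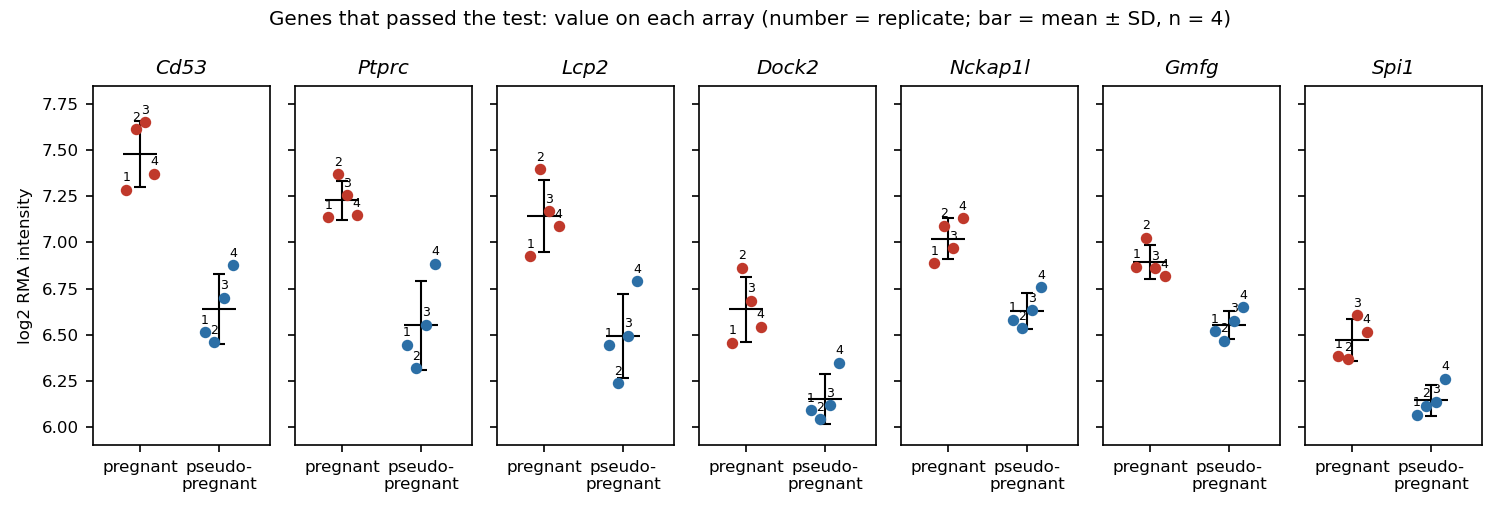
Log2 intensity on each array of the 7 genes that rose, with the pregnant group (red) left of the pseudopregnant group (blue) in each panel; numbers are replicates, and bars give the mean and SD (n = 4 each). In all 7 panels every pregnant point lies above every pseudopregnant point, and pseudopregnant replicate 4 is the highest of its group.

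The enzymes that act closest to the receptors had the lowest median difference of the 6 role groups, though role groups were not tested against each other. They were also the dimmest group, at a median log2 intensity of 6.05, where the other groups had 6.25 to 7.06. Whether brightness played a part in the size of the differences was not tested. Of the 6 kinases, phosphatases and the phospholipase tested, 0 rose and 0 fell in limma, against 1.41% and 0.412% of all probe sets tested. At an unadjusted limma p under 0.05, 4 were higher, against 14.3% of all probe sets tested. Their differences lay between 0.06 and 0.23 with a median of 0.18. Ptpn6 encodes SHP-1, the phosphatase that damps signalling behind inhibitory receptors. It had 6.70, 6.67, 6.69 and 6.75 in pregnant uteri, against 6.45, 6.38, 6.49 and 6.58 in pseudopregnant uteri. The groups were separate with narrow spreads, and the difference of 0.23 (SE 0.0563) had a limma adjusted p of 0.0632. Inpp5d, the lipid phosphatase SHIP1, had 6.65, 6.80, 6.93 and 6.80 in pregnant uteri, against 6.46, 6.48, 6.67 and 6.69 in pseudopregnant uteri, a difference of 0.22 (SE 0.0783) with a limma adjusted p of 0.132. Its groups overlapped slightly.

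Fgr, a Src family kinase of myeloid cells, had 5.51, 5.76, 5.64 and 5.64 in pregnant uteri, against 5.34, 5.30, 5.43 and 5.71 in pseudopregnant uteri. The groups overlapped through pseudopregnant replicate 4, and the limma adjusted p of the difference of 0.19 was 0.249. Syk, the kinase that docks on phosphorylated receptor tails, had 5.94, 6.10, 6.00 and 6.13 in pregnant uteri, against 5.92, 5.91, 5.81 and 5.89 in pseudopregnant uteri. Plcg2, the phospholipase that raises calcium after receptor engagement, had 6.16 to 6.25 in pregnant uteri, against 5.96 to 6.14 in pseudopregnant uteri. Both were separate between the groups, with differences of 0.16 for Syk and 0.14 for Plcg2 and limma adjusted p-values of 0.142 and 0.174. Ptpn22, a phosphatase that restrains antigen receptor signalling, had 5.31 to 5.71 in pregnant uteri, against 5.34 to 5.74 in pseudopregnant uteri, and the 95% interval of its difference, -0.17 to 0.30, included 0. Btk, the Tec family kinase of B cells and myeloid cells, was too dim to be tested, at 4.40 to 4.69 in pregnant uteri and 4.33 to 4.38 in pseudopregnant uteri.

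Of the 8 adaptors and Rac signalling genes tested, Lcp2 and Dock2 rose, where 1.41% of all probe sets tested did. The median difference was 0.45. Lcp2 encodes SLP-76, the scaffold on which Vav1 and phospholipase C gamma meet. It had 6.93, 7.40, 7.17 and 7.09 in pregnant uteri, against 6.44, 6.24, 6.49 and 6.79 in pseudopregnant uteri. The groups were separate, with pregnant replicate 2 the highest of all and pseudopregnant replicate 4 the nearest from below. The difference of 0.66 (SE 0.125, 95% interval 0.38 to 0.93), or 1.58-fold, had a limma adjusted p of 0.0371. Dock2, the exchange factor that activates Rac in migrating white blood cells, had 6.46, 6.86, 6.68 and 6.54 in pregnant uteri, against 6.09, 6.04, 6.12 and 6.35 in pseudopregnant uteri. Its groups were separate as well. The difference was 0.49 (SE 0.0969, 95% interval 0.27 to 0.70), or 1.40-fold, with a limma adjusted p of 0.0399. Leaving out a single array kept the difference between 0.57 and 0.76 for Lcp2 and between 0.41 and 0.55 for Dock2. Both kept an adjusted p under 0.05 only without pseudopregnant replicate 4, at 0.0261 for Lcp2 and 0.0360 for Dock2, and reached 0.0992 and 0.109 without pseudopregnant replicate 1.

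Fyb encodes ADAP, the adaptor that links SLP-76 to integrins. It had 7.45, 6.82, 7.25 and 7.38 in pregnant uteri, against 6.79, 6.49, 6.92 and 6.57 in pseudopregnant uteri. Pregnant replicate 2, the highest pregnant array in 16 of the 32 genes, was the lowest pregnant array for Fyb and overlapped the pseudopregnant group. The difference of 0.54 (SE 0.140) had a limma adjusted p of 0.0687, and without that array it was 0.67 with an adjusted p of 0.0321. Arhgdib, the inhibitor that holds Rac proteins in the cytosol of blood cells, had 7.62, 8.15, 7.93 and 7.57 in pregnant uteri, against 7.38, 7.23, 7.34 and 7.47 in pseudopregnant uteri. Its groups were separate, and the limma adjusted p of the difference of 0.46 (SE 0.121) was 0.0687.

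Vav1, the exchange factor downstream of antigen and Fc receptors, had 5.81, 5.94, 5.98 and 5.72 in pregnant uteri, against 5.22, 5.26, 5.48 and 5.76 in pseudopregnant uteri. Only pseudopregnant replicate 4 overlapped the pregnant arrays, and the difference of 0.43 (SE 0.116) had a limma adjusted p of 0.0709, and of 0.0309 without that array. Rac2, the Rac GTPase of blood cells, had 6.70, 7.06, 7.00 and 6.76 in pregnant uteri, against 6.58, 6.45, 6.61 and 6.80 in pseudopregnant uteri, a difference of 0.27 with a limma adjusted p of 0.141. Pregnant replicates 1 and 4 of Rac2 lay below pseudopregnant replicate 4. Hcls1, the blood cell relative of cortactin, had 6.59 to 6.89 in pregnant uteri, against 6.40 to 6.68 in pseudopregnant uteri, and differed by 0.23 (limma adjusted p 0.160). Sash3, an adaptor of lymphocytes, had 5.53 to 5.82 in pregnant uteri, against 5.55 to 5.70 in pseudopregnant uteri, and differed by 0.10 (limma adjusted p 0.451). The groups overlapped in both. Cytip, which binds the exchange factor cytohesin 1, was too dim to be tested, at 4.93 to 5.56 in pregnant uteri and 4.55 to 5.06 in pseudopregnant uteri.

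In the actin cytoskeleton group, Nckap1l and Gmfg rose out of 5 genes tested, where 1.41% of all probe sets tested did. The median difference was 0.34. Nckap1l encodes HEM1, the blood cell subunit of the WAVE complex, through which Rac drives branching of actin. It had 6.89, 7.09, 6.97 and 7.13 in pregnant uteri, against 6.58, 6.53, 6.63 and 6.76 in pseudopregnant uteri. Every pregnant array was above every pseudopregnant one. The difference of 0.39 (SE 0.0718, 95% interval 0.23 to 0.55), or 1.31-fold, had a limma adjusted p of 0.0341. Gmfg, which takes branched actin apart at the Arp2/3 complex, had 6.87, 7.03, 6.86 and 6.82 in pregnant uteri, against 6.52, 6.47, 6.58 and 6.65 in pseudopregnant uteri. The groups were again separate. The difference was 0.34 (SE 0.0637, 95% interval 0.20 to 0.48), or 1.27-fold, with a limma adjusted p of 0.0357. A second Gmfg probe set, too dim to be tested, had 5.00, 4.85, 4.89 and 4.80 in pregnant uteri, against 5.08, 5.11, 4.68 and 4.93 in pseudopregnant uteri, so the result for this gene rests on 1 of its 2 probe sets. With a single array left out, Nckap1l passed without pregnant replicate 1 or pseudopregnant replicate 4 and had adjusted p-values from 0.0326 to 0.0936, and Gmfg passed without pseudopregnant replicate 4 alone and had 0.0404 to 0.0946.

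Lcp1, the blood cell plastin that bundles actin filaments, had 7.94, 8.24, 8.12 and 7.94 in pregnant uteri, against 7.49, 7.63, 7.67 and 7.86 in pseudopregnant uteri. The groups were separate, and the difference of 0.40 (SE 0.0931) had a limma adjusted p of 0.0578. Coro1a, a coronin that binds actin in blood cells, had 6.22, 6.19, 6.17 and 6.22 in pregnant uteri, against 5.79, 6.07, 5.87 and 6.24 in pseudopregnant uteri, a difference of 0.21 with a limma adjusted p of 0.200. The pregnant arrays of Coro1a had an SD of 0.02, and pseudopregnant replicate 4 lay just above all of them. Was, the Wiskott-Aldrich syndrome protein that activates Arp2/3, had 5.23, 5.27, 5.35 and 5.33 in pregnant uteri, against 5.40, 5.10, 5.26 and 5.25 in pseudopregnant uteri. Its groups overlapped throughout, at the edge of the brightness needed for testing. The 95% interval of its difference was -0.11 to 0.20, and the difference changed sign, to -0.01, without pseudopregnant replicate 2.

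Of the 4 transcription factors, Spi1 rose, where 1.41% of all probe sets tested did. Spi1, which encodes PU.1, had 6.38, 6.37, 6.61 and 6.52 in pregnant uteri, against 6.06, 6.11, 6.13 and 6.26 in pseudopregnant uteri. The groups were separate by the gap between 6.37 and 6.26. The difference of 0.33 (SE 0.0697, 95% interval 0.17 to 0.48), or 1.25-fold, had a limma adjusted p of 0.0496. It lay between 0.28 and 0.36 with a single array left out, and the adjusted p then lay between 0.0501 and 0.117, so the call was lost whichever array was left out.

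Irf8, the interferon regulatory factor that partners PU.1 in macrophages and dendritic cells, had 7.95, 7.84, 7.97 and 7.77 in pregnant uteri, against 7.47, 7.55, 7.58 and 7.69 in pseudopregnant uteri. The groups were separate, and the difference of 0.31 (SE 0.0678) had a limma adjusted p of 0.0516, the lowest of the 25 genes that did not pass. Ikzf1, which encodes the lymphoid regulator Ikaros, had 5.83, 5.87, 5.86 and 5.77 in pregnant uteri, against 5.84, 5.31, 5.44 and 5.82 in pseudopregnant uteri. The pregnant arrays agreed closely, while pseudopregnant replicates 1 and 4 matched them and replicates 2 and 3 lay lower. The difference of 0.23 had a limma adjusted p of 0.248. Irf5, a regulator of inflammatory genes in macrophages, had 6.20 to 6.31 in pregnant uteri, against 6.11 to 6.20 in pseudopregnant uteri, a difference of 0.10 with a limma adjusted p of 0.245.

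The NADPH oxidase makes superoxide in phagocytes from a membrane pair, Cybb and Cyba, and cytosolic subunits that include Ncf1 and Ncf4. Of these 4 genes 0 rose and 0 fell in limma, against 1.41% and 0.412% of all probe sets tested. All 4 were higher at an unadjusted limma p under 0.05, against 14.3% of all probe sets tested. Cybb, the catalytic subunit, had 7.56, 7.92, 7.75 and 7.61 in pregnant uteri, against 6.90, 6.82, 7.35 and 7.41 in pseudopregnant uteri. The groups were separate, but the pseudopregnant arrays formed a low pair, replicates 1 and 2, and a higher pair, replicates 3 and 4. The difference of 0.59 (SE 0.139) had a limma adjusted p of 0.0578. Cyba, its partner, had 8.82, 9.10, 8.86 and 8.91 in pregnant uteri, against 8.50, 8.65, 8.74 and 8.69 in pseudopregnant uteri, a difference of 0.28 (SE 0.0758) with a limma adjusted p of 0.0747. Ncf4 had 5.18, 5.31, 5.33 and 5.40 in pregnant uteri, against 5.13, 4.97, 4.95 and 5.32 in pseudopregnant uteri, with 1 pregnant and 3 pseudopregnant arrays below the 40th percentile of their array. Ncf1 had 5.81 to 6.04 in pregnant uteri, against 5.68 to 5.85 in pseudopregnant uteri. The Ncf4 difference of 0.21 and that of 0.18 for Ncf1 had limma adjusted p-values of 0.182 and 0.146, with overlapping groups in both.

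Another list held 59 further white blood cell genes of the same kinds, such as integrins, lipid kinases and unconventional myosins, of which 46 were tested. In it 11 rose and 0 fell (limma), against 1.41% and 0.412% of all probe sets tested. Of its 46 differences 40 were above 0, against 50.6% of all probe sets tested, and the median was 0.23. The groups were separate with the pregnant arrays above in 21, against 9.23% of all probe sets tested. Plek, the pleckstrin of platelets and white blood cells, had 6.90, 6.92, 7.02 and 6.90 in pregnant uteri, against 6.51, 6.39, 6.44 and 6.59 in pseudopregnant uteri, a difference of 0.45 with a limma adjusted p of 0.0133. Itgb2, the integrin beta chain of white blood cells, differed by 0.46 and its partner Itgam, the alpha chain of complement receptor 3, by 0.35, with limma adjusted p-values of 0.0255 and 0.0241. Dock10, an exchange factor related to Dock2, differed by 0.63 with a limma adjusted p of 0.0241. All 4 had separate groups. The lowest difference in the list was -0.28 for Ptk2b, a kinase related to focal adhesion kinase, with a limma adjusted p of 0.122. Without pregnant replicates 1, 2, 3 and 4 in turn, 2, 3, 4 and 2 genes of this list rose, and without pseudopregnant replicates 1, 2, 3 and 4 in turn, 3, 1, 1 and 8 did.

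Close relatives of these genes that most cell types make were read on the same arrays. Of 21 such genes 19 were tested, and 0 rose and 0 fell in limma. Of all probe sets tested 1.41% rose and 0.412% fell, so counts of 0 among 19 are near those shares. At an unadjusted limma p under 0.05, 1 was higher, Ptpn12 at 0.16, and 1 lower, Plcg1 at -0.13, against 14.3% and 9.43% of all probe sets tested. In this list 11 of 19 differences were above 0, against 50.6% of all probe sets tested, with a median of 0.04. Dock1, the relative of Dock2, had 8.72, 8.44, 8.56 and 8.63 in pregnant uteri, against 8.46, 8.52, 8.59 and 8.55 in pseudopregnant uteri, a difference of 0.06 with a 95% interval of -0.09 to 0.20. Nckap1, the relative of Nckap1l in the WAVE complex of other cells, had 9.08, 9.06, 9.07 and 9.21 in pregnant uteri, against 9.03, 9.11, 9.07 and 8.98 in pseudopregnant uteri, a difference of 0.06 with a 95% interval of -0.07 to 0.18. Gmfb, the relative of Gmfg, had 8.74, 8.74, 8.68 and 8.63 in pregnant uteri, against 8.64, 8.82, 8.77 and 8.60 in pseudopregnant uteri, a difference of -0.01 with a 95% interval of -0.15 to 0.13. In all 3 the groups overlapped. In 2 pairs the relative had the larger difference, Ptpn12 with 0.16 beside 0.06 for Ptpn22 and Wasl with 0.09 beside 0.04 for Was. Whether a gene and its relative differed in their change was not tested.

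Markers of several white blood cell types moved in the same direction, and their part in the values above was not tested. For the counts below, 1.41% of all probe sets tested rose in limma. Of 10 macrophage markers 10 were tested and 5 rose, namely C1qb, Adgre1, C1qc, Mrc1 and Cd68, by 0.43 to 0.62 on the log2 scale, and the list's summed linear intensity was 1612 to 1945 in pregnant uteri, against 1340 to 1438 in pseudopregnant uteri. Of 8 NK cell markers 6 were tested and 4 rose, namely Gzmb, Il2rb, Ncr1 and Prf1, by 0.42 to 1.51, at a summed intensity of 497 to 891 in pregnant uteri, against 287 to 420 in pseudopregnant uteri. Of 6 dendritic cell markers 5 were tested, and Clec9a (0.81) and Itgax (0.57) rose. All 4 pseudopregnant arrays of Clec9a lay below the 40th percentile of their array, so it was tested only because of its pregnant arrays. The same held for Eomes among the NK cell markers tested. Cd209a (0.20), Flt3 (0.19) and Zbtb46 (-0.07) did not pass. The mean log2 intensity of the 5 dendritic cell markers tested, Clec9a included, was 5.93 to 6.22 in pregnant uteri. In pseudopregnant uteri it was 5.55 to 5.86, without overlap. The list's summed intensity was 379 to 512 in pregnant uteri, against 327 to 390 in pseudopregnant uteri, so these sums overlapped. With 1 array left out, 1 to 3 macrophage markers, 0 to 2 dendritic cell markers and 0 to 4 NK cell markers passed, and of the NK cell markers 0 did without pregnant replicate 4 or without pseudopregnant replicate 1, 2 or 3. The means of the macrophage and NK cell lists were highest on pregnant replicate 2, and within the pseudopregnant group on replicate 4, the array that stood high for 24 of the 32 genes. This was not particular to white blood cell lists, as the stromal fibroblast list had the same order (10.86 and 10.80 on these arrays). Pregnant replicate 2 was also highest for the smooth muscle list. Pseudopregnant replicate 4 was also the highest of its group for the dendritic cell, T cell and endothelial lists.

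Markers of the other cell types did not pass the test or were too dim for it. Of 8 T cell markers 2 were tested and neither passed in limma, with differences of -0.15 for Cd3e (adjusted p 0.297) and 0.04 for Cd3g (adjusted p 0.901) and 0 at an unadjusted p under 0.05. None of the 8 neutrophil markers and none of the 5 B cell markers on the array was bright enough to be tested. The summed intensity of the B cell markers was 105 to 111 in pregnant uteri, against 103 to 116 in pseudopregnant uteri, and that of the neutrophil markers 165 to 194 in pregnant uteri, against 147 to 169 in pseudopregnant uteri. Of 5 eosinophil markers 1 was tested, of 6 mast cell markers 2, of 4 platelet markers 3 and of the red blood cell markers 1, and 0 of these passed in limma, with 0 at an unadjusted p under 0.05. Endothelial markers had differences below 0 in 6 of 6 genes and epithelial markers in 5 of 6, with medians of -0.13 and -0.21. In limma 0 of them passed, with 2 lower in each list at an unadjusted p under 0.05, against 9.43% of all probe sets tested. The endothelial mean log2 intensity was 8.31 to 8.53 in pregnant uteri, against 8.56 to 8.66 in pseudopregnant uteri, without overlap. Every pregnant array lay below every pseudopregnant array in 3 endothelial genes and 1 epithelial gene, against 5.38% of all probe sets tested. The epithelial means overlapped, at 7.60 to 7.93 in pregnant and 7.87 to 8.35 in pseudopregnant uteri. Stromal fibroblast markers had a median of 0.07 and smooth muscle markers of 0.10, and 0 of the 12 passed, with 0 stromal and 1 smooth muscle marker, lower in the pregnant group, at an unadjusted p under 0.05.

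**Figure D4:**
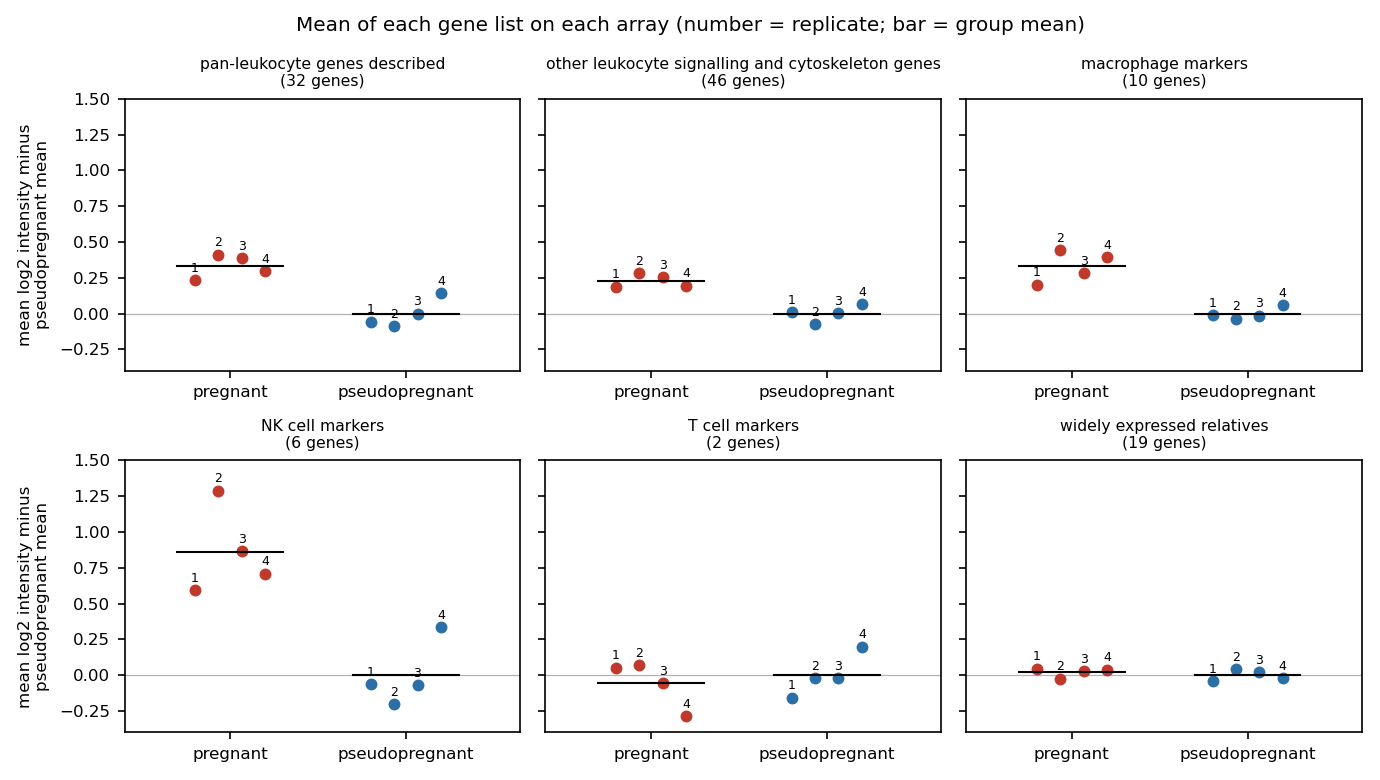
Mean log2 intensity of each gene list on each array, minus the mean of the pseudopregnant group, with pregnant arrays (red) left of pseudopregnant arrays (blue); numbers are replicates and bars are group means. The groups are apart for the 32 genes, for the further white blood cell genes and for the macrophage and NK cell markers, and overlap for the T cell markers and the widely expressed relatives.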

How the data were processed

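Total RNA of 8 uteri was read on 8 arrays. The authors deposited intensities per probe set, linear in scale, that RMA had background-corrected, quantile-normalized and summarised by median polish, per the submitters' processing notes. The sources used here name no software, version or annotation build. RMA makes the arrays' distributions alike and compresses changes of dim genes. Of 35556 probe sets, the 6612 with the lowest identifiers, none with a listed gene, were left out as array controls, and 17494 were kept for exceeding their array's 40th percentile on at least 4 of 8 arrays. Names came from the platform's gene table. Where a gene had several probe sets, the brightest over all arrays stood for it. Log2 intensities were fitted in R 4.3.3 with limma 3.58.1 (lmFit, eBayes) (two-sided, Benjamini-Hochberg over the 17494), after tests on simulated data. The SD and n are over arrays, whose number limits the precision. Intensities of different probe sets were not compared, apart from the median brightness of the role groups. Figures were drawn with matplotlib 3.10.9. The genes, lists and tests were chosen with earlier results of these data known. The text gives values of all genes of the set, with arrays shown for those that passed, the 3 largest differences in each role and any against the majority direction, and up to 4 genes with the smallest p of each other list, plus relatives of genes that passed. Across groups the deviations of same-numbered arrays had correlations of 0.24, 0.02, -0.10 and 0.04, so the arrays were fitted without pairs. These weak correlations cannot exclude shared mating, collection or array days.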

Additional observations from a re-analysis of the deposited data

Results flagged for a closer look

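Cd37 stood out in the pseudopregnant group, where replicate 3 had a log2 intensity of 5.91 while the other 3 arrays lay between 6.27 and 6.29. The gap was 0.94 of the group's range, above Dixon's 95% critical value for 4 samples. It was the only such array among 70 groups of 4 examined, where chance marks about 1 in 20. The Cd37 log2 difference was 0.26 without that array, against 0.35 with it, and the limma adjusted p was over 0.05 either way.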

How the results depend on the processing

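Signs were stable and calls were not. Among the 18 alternatives run, the 32 genes kept differences above 0 except Was without pseudopregnant replicate 2 and Ptpn22 without both pregnant replicate 2 and pseudopregnant replicate 1. Their median was 0.30 with arrays centred on their medians, 0.26 with repeated quantile normalization and 0.27 with cyclic loess normalization. With a single array left out, 1 to 10 of the 32 genes, 1 to 8 of the 46 further white blood cell genes, 0 of the relatives and 40 to 235 of all probe sets passed. Without an intensity filter these counts were 1 of the genes, 3 of the further genes and 54 in all. With an intensity trend and robust eBayes they were 11 genes and 708 in all. With both pregnant replicate 2 and pseudopregnant replicate 1 left out they were 0, 2 and 48. With the replicate number as a block, for which the pairing check gave weak correlations, they were 2, 5 and 174. Replicates 1 and 4 correlated best with their own number, and replicates 2 and 3 did not. The further genes numbered 7 with repeated quantile normalization and 7 with a filter at the 60th percentile. The cause was not tested, except that settings without arrays have fewer samples and the settings with another filter test other numbers of probe sets. Values near the background, as of Was, Ncf4 and the 3 genes too dim to be tested, limit what can be read from them.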
